A study of Saccharomyces cerevisiae with 6 samples.

Results

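The 10 genes for copper and reductive iron transport are *FET3*, *FTR1*, *FET4*, *CTR1*, *CTR2*, *CTR3*, *CCC2*, *ATX1*, *MAC1* and *SOD1*. They were taken by name from the 6256 genes on the array, each of which had 1 probe in 7 spots, and all 10 were found. RNA was compared between YΔGP/XK/XI, in which *PHO13* had been disrupted with *KanMX*, and its parent YΔG/XK/XI, with 3 arrays per strain. Both strains derive from YPH499, a laboratory strain with *ade2*, *his3*, *leu2*, *lys2*, *trp1* and *ura3* mutations. Both also lack the aldose reductase gene *GRE3*, overexpress the xylulokinase gene *XKS1* from the *TDH3* promoter, and carry multiple copies of the *Orpinomyces* xylose isomerase gene *xylA* under the *PGK1* promoter. The cells were grown aerobically in YPD, washed, and moved to closed bottles of YP medium, a rich medium of yeast extract and peptone, with 50 g/L xylose, and RNA was taken after 9 h under oxygen limitation. Neither the number of transformants used nor the metal content of the medium is given in the sources used here.

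Yeast takes up iron and copper after metalloreductases at the cell surface have reduced them. The high-affinity iron system is a complex of Fet3p, a multicopper oxidase that oxidizes ferrous iron, and Ftr1p, the permease that carries it across the plasma membrane, and each protein needs the other to reach the surface. Fet3p works only when loaded with copper, which enters through Ctr1p or Ctr3p, is passed by the chaperone Atx1p to the ATPase Ccc2p, and is pumped by Ccc2p into the Golgi where Fet3p is assembled. The transcription activator Mac1p turns on copper uptake genes when copper is scarce, and Aft1p turns on *FET3*, *FTR1* and the other genes of the iron regulon when iron is scarce.

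The genes of the ferroxidase and of the permease changed in opposite directions. In YΔGP/XK/XI the *FET3* transcript was 42.1% lower than in the parent, and the *FTR1* transcript was 1.31-fold higher. In the copper branch the transporter gene *CTR1* was 1.37-fold higher, and *MAC1*, which encodes its activator, fell by 41.3%. The other 6 genes did not pass the test. The strains thus differed in 4 of the 10 genes at an adjusted p under 0.05 (limma with Benjamini-Hochberg adjustment over all genes), 2 in each direction, where 29.6% of all genes on the array were called, 16.5% higher and 13.1% lower. In the same 4 genes, and in 46.6% of all genes, every array of one strain lay above every array of the other. A share of 4 in 10 is close to these backgrounds, so the account below rests on the single genes and not on their number.

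**Figure D1:**
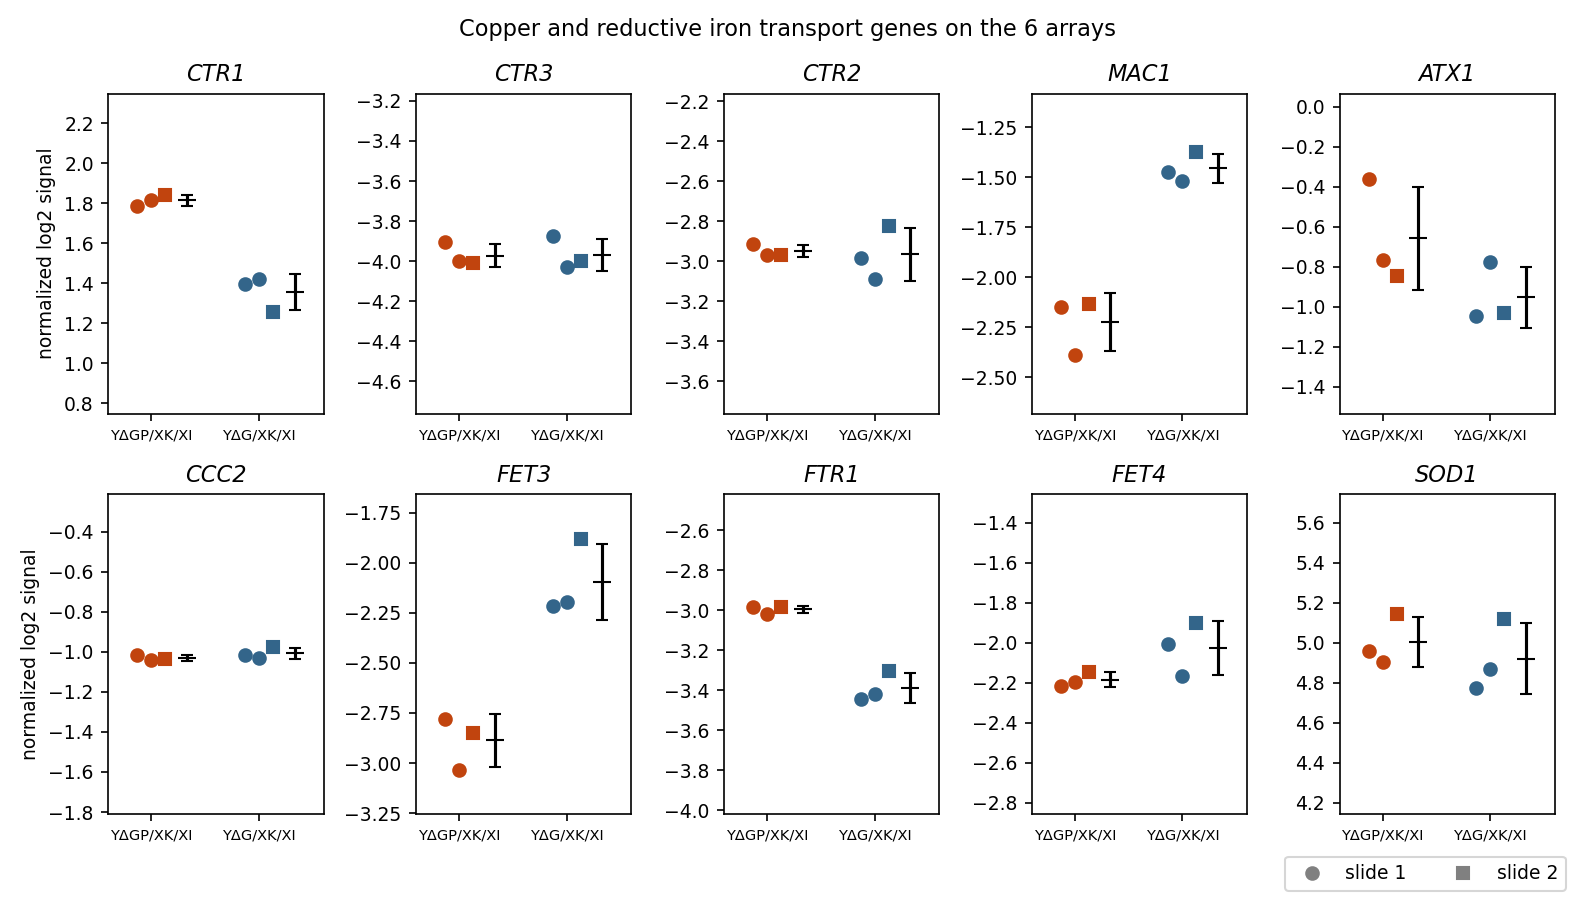
Normalized log2 signal (vertical axis, the same 1.6-unit span in each panel) of the 10 genes on the 3 arrays of YΔGP/XK/XI and the 3 arrays of YΔG/XK/XI, with the mean and SD in black and the slide given by the symbol. *CTR1* and *FTR1* lie higher and *FET3* and *MAC1* lie lower in YΔGP/XK/XI without overlap, and the strains overlap in the other 6 genes.

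The arrays were of similar quality. The normalized log2 signal is the log2 intensity of a probe minus the 75th percentile of its array, so each gene has a scale of its own and the level of one gene is not set against that of another. The 75th percentile was 3782 to 7095 in YΔGP/XK/XI and 4631 to 7632 in YΔG/XK/XI, in scanner units. Between 94.3 and 97.0% of the probes were well above background, no spot was saturated, and all 10 probes were well above background on all 6 arrays. Replicates 1 and 2 of both strains shared slide 1 and replicate 3 of both was on slide 2. The probe of *PHO13* rose well above background in 0 of 3 YΔGP/XK/XI hybridizations and in 3 of 3 YΔG/XK/XI hybridizations, where its signal was at least 82.4-fold higher, or at least 24.6-fold with the normexp background correction. *GRE3* was near background throughout, and *XKS1* had a log2 fold change of -0.45 (adjusted p = 0.0112, limma). Over all genes 1033 were called higher and 819 lower in YΔGP/XK/XI, and this split was 838 to 1137 when each array was scaled to its median.

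*FET3* (YMR058W) had normalized log2 signals of -2.78, -3.03 and -2.85 on the arrays of YΔGP/XK/XI, against -2.22, -2.20 and -1.88 on those of YΔG/XK/XI. The highest array of YΔGP/XK/XI lay well below the lowest of YΔG/XK/XI, and replicate 3 of YΔG/XK/XI stood above its other two. This gave a log2 fold change of -0.79 ± 0.11 (standard error here and below, 95% interval -1.05 to -0.53, adjusted p = 0.00149, limma). It was -0.68 without replicate 3 of the parent, and the gene was still called. The 21 spots of YΔGP/XK/XI ranged from -3.14 to -2.70 and the 21 spots of YΔG/XK/XI from -2.37 to -1.81, without overlap. Here and below, the spots repeat the same probe on the same arrays and are not further replicates.

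*FTR1* (YER145C) had normalized log2 signals of -2.98, -3.02 and -2.99 in YΔGP/XK/XI, against -3.44, -3.42 and -3.31 in YΔG/XK/XI. The 3 arrays of YΔGP/XK/XI agreed within 0.0192 (SD, n = 3) and all lay above YΔG/XK/XI, whose SD was 0.0732 (n = 3). This was a log2 fold change of 0.39 ± 0.07 (95% interval 0.23 to 0.56, adjusted p = 0.00454, limma). Its spots ranged from -3.12 to -2.82 in YΔGP/XK/XI and from -3.56 to -3.15 in YΔG/XK/XI. The distance between the nearest spots of the strains was thus small for *FTR1*, and there was still no overlap.

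The difference between the 2 changes was examined directly by subtracting, on each array, the log2 signal of *FTR1* from that of *FET3*. This difference was 0.21, -0.01 and 0.14 in YΔGP/XK/XI, against 1.23, 1.22 and 1.43 in YΔG/XK/XI. The ratio of *FET3* signal to *FTR1* signal in YΔGP/XK/XI was thus 0.441 times that in YΔG/XK/XI, a log2 difference of -1.18 ± 0.09 (95% interval -1.44 to -0.92). An exact two-sided permutation test gave p = 0.1, which is the smallest that 3 arrays against 3 allow. The scaling of the arrays cancels in this ratio. It was -1.13 within slide 1 and -1.29 within slide 2. With the normexp background correction, which adds an offset to every spot, it was -1.07.

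**Figure D2:**
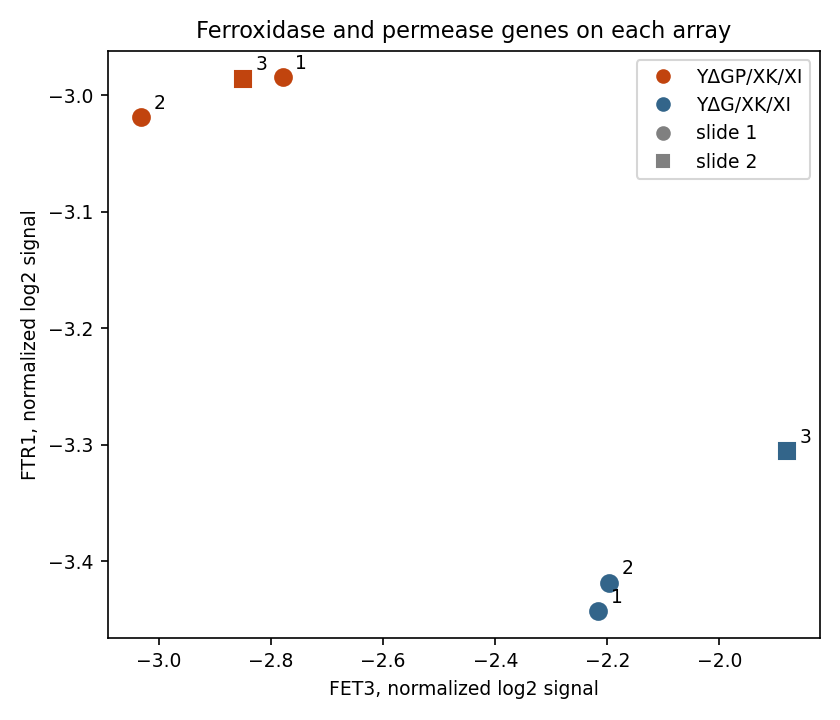
Normalized log2 signal of *FTR1* (vertical axis) against that of *FET3* (horizontal axis) on each array, numbered by replicate, with colour for the strain and symbol for the slide. The arrays of YΔGP/XK/XI lie at the upper left, with *FET3* at -2.78 or below and *FTR1* at -3.02 or above, and those of YΔG/XK/XI at the lower right.

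How far the scaling bears on each gene can be seen in the unscaled intensities. *FET3* gave 813, 868 and 525 scanner units in YΔGP/XK/XI, against 1645, 1473 and 1261 in YΔG/XK/XI. These do not overlap, although the arrays of YΔGP/XK/XI included the second brightest of the 6. *FTR1* gave 706, 877 and 478 units in YΔGP/XK/XI, against 703, 632 and 469 in YΔG/XK/XI. The unscaled values of *FTR1* overlap between the strains, and the strains separate only once the brightness of each array is taken into account. The rise of *FTR1* was called under each of the scalings tried, with a log2 fold change of 0.33 after scaling to the median and 0.29 after quantile normalization (adjusted p = 0.0108 and 0.0169, limma).

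**Figure D3:**
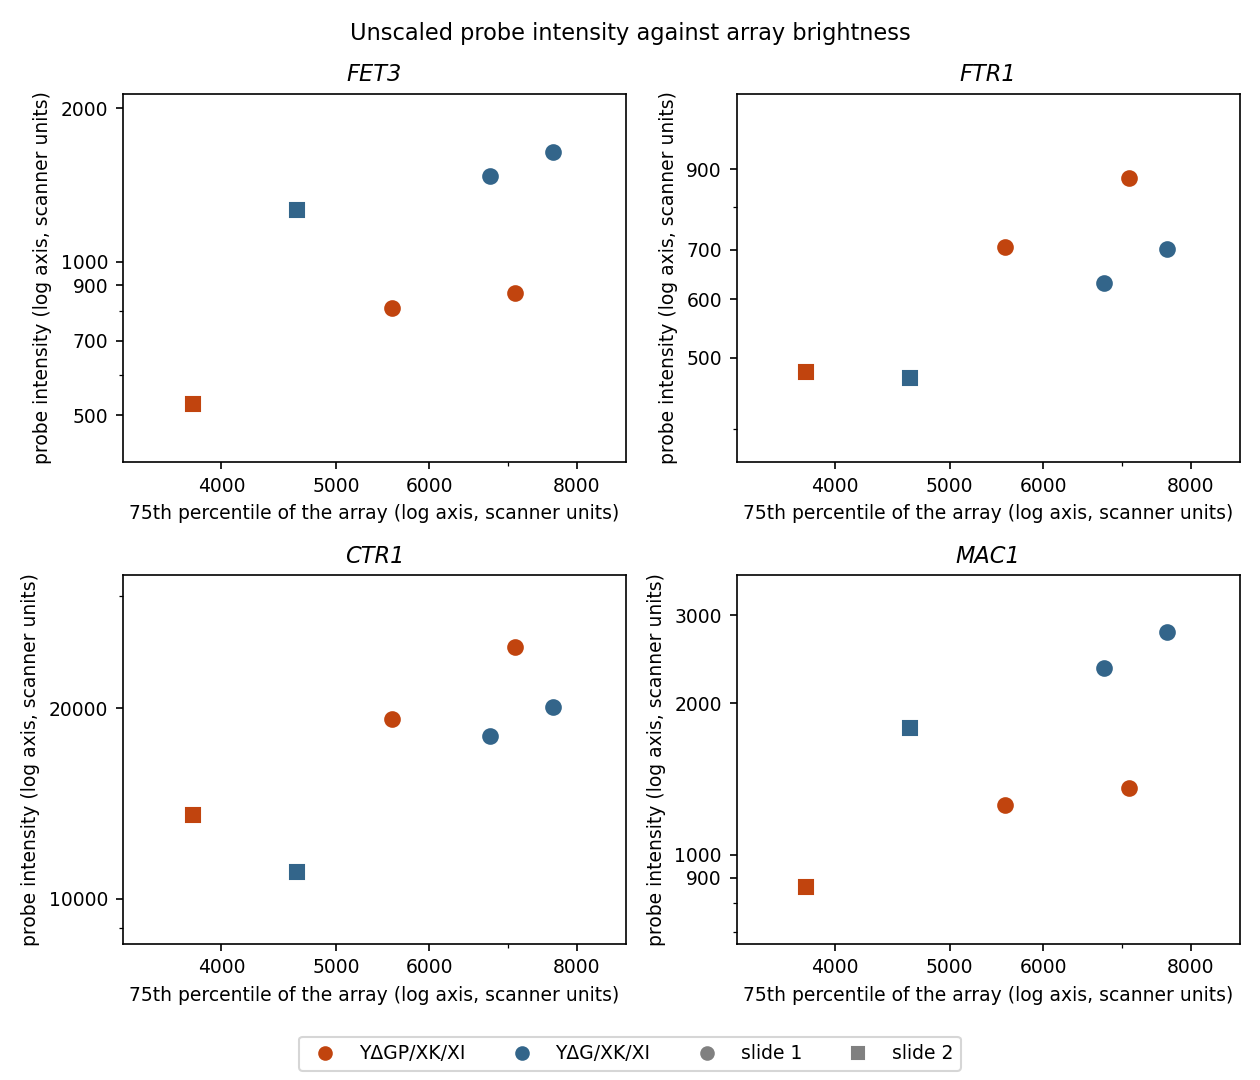
Unscaled intensity of the probes of *FET3*, *FTR1*, *CTR1* and *MAC1* (vertical axis, log scale) against the 75th percentile of the array (horizontal axis, log scale), both in scanner units, for each array. At a similar array brightness YΔGP/XK/XI lies below YΔG/XK/XI for *FET3* and *MAC1* and above it for *FTR1* and *CTR1*, while the intensities of *FTR1* and *CTR1* alone overlap.

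The third iron carrier, *FET4* (YMR319C), encodes a low-affinity transporter of the plasma membrane that also accepts copper and zinc. Its normalized log2 signals were -2.22, -2.19 and -2.14 in YΔGP/XK/XI, against -2.01, -2.17 and -1.90 in YΔG/XK/XI, and the strains overlapped. The log2 fold change of -0.16 (95% interval -0.36 to 0.03, adjusted p = 0.186, limma) did not pass the test. A fall as large as that of *FET3* lies outside this interval.

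Of the copper transporter genes, only *CTR1* was called. *CTR1* (YPR124W), which encodes the main high-affinity copper transporter of the cell surface, had normalized log2 signals of 1.79, 1.81 and 1.84 in YΔGP/XK/XI, against 1.39, 1.42 and 1.25 in YΔG/XK/XI. The arrays of YΔGP/XK/XI lay close together and above all those of YΔG/XK/XI. *CTR1* thus had a log2 fold change of 0.46 ± 0.07 (95% interval 0.29 to 0.63, adjusted p = 0.00283, limma). As for *FTR1*, the unscaled intensities overlapped, at 19229, 24940 and 13561 units in YΔGP/XK/XI against 20064, 18098 and 11042 in YΔG/XK/XI. *CTR1* was called under each scaling, with its smallest log2 fold change, 0.40, after scaling to the median.

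*CTR3* (YLR411W) encodes the second high-affinity copper transporter of the cell surface, and in many laboratory strains a transposable element in its promoter keeps it nearly silent. Its probe gave 235 to 444 units in YΔGP/XK/XI and 293 to 521 in YΔG/XK/XI, well above the local background of 21 to 24 units. The normalized log2 signals were -3.91, -4.00 and -4.01 in YΔGP/XK/XI, against -3.88, -4.03 and -4.00 in YΔG/XK/XI. The values of the strains lay within each other, and the log2 fold change of -0.0046 had a 95% interval of -0.18 to 0.17. *CTR2* (YHR175W), which encodes the transporter that releases copper from the vacuole, ranged from -2.97 to -2.92 in YΔGP/XK/XI and from -3.09 to -2.82 in YΔG/XK/XI, with a log2 fold change of 0.01 (95% interval -0.18 to 0.21). For both genes the interval leaves out a change as large as the rise of *CTR1*, and the sign of the estimate varied with the processing, so no direction is given.

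*MAC1* (YMR021C) encodes the copper-sensing activator. Its normalized log2 signals were -2.15, -2.39 and -2.13 in YΔGP/XK/XI, against -1.47, -1.52 and -1.38 in YΔG/XK/XI. The gap between the strains was wider than the range within either. On the log2 scale the change was -0.77 ± 0.09 (95% interval -0.98 to -0.56, adjusted p = 5.99e-04, limma), the smallest adjusted p of the 10 genes. The unscaled intensities did not overlap either, at 1256, 1356 and 864 units in YΔGP/XK/XI against 2772, 2355 and 1786 in YΔG/XK/XI. The transcript of the activator was thus lower where that of its target *CTR1* was higher. The array measures RNA and gives nothing on the amount or activity of Mac1p.

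*ATX1* and *CCC2*, the genes for the route of copper to Fet3p, were not called. *ATX1* (YNL259C), the gene of the chaperone that hands copper to Ccc2p, had normalized log2 signals of -0.36, -0.77 and -0.85 in YΔGP/XK/XI, against -1.05, -0.78 and -1.03 in YΔG/XK/XI. One array of YΔGP/XK/XI stood far above its other two, and the strains overlapped. The log2 fold change of 0.29 had the widest interval of the 10 genes, -0.02 to 0.61 (adjusted p = 0.138, limma), so a rise as large as that of *CTR1* is not left out. *CCC2* (YDR270W), the gene of the Golgi copper ATPase, had the narrowest interval of the 10. It ranged from -1.04 to -1.01 in YΔGP/XK/XI and from -1.03 to -0.98 in YΔG/XK/XI, and the log2 fold change of -0.02 (95% interval -0.17 to 0.13) leaves out changes as large as those of *FET3*, *FTR1*, *CTR1* and *MAC1*.

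*SOD1* (YJR104C) encodes the copper-zinc superoxide dismutase, which receives copper from its own chaperone, Ccs1p. Its normalized log2 signals were 4.96, 4.91 and 5.14 in YΔGP/XK/XI, against 4.78, 4.87 and 5.12 in YΔG/XK/XI. The array of slide 2 was the highest in each strain, and the strains overlapped. With an interval of -0.17 to 0.33, the log2 fold change of 0.08 did not pass the test (adjusted p = 0.594, limma), and its sign varied with the processing. *CCS1* (YMR038C) had a log2 fold change of -0.07 (95% interval -0.26 to 0.13, adjusted p = 0.597, limma).

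**Figure D4:**
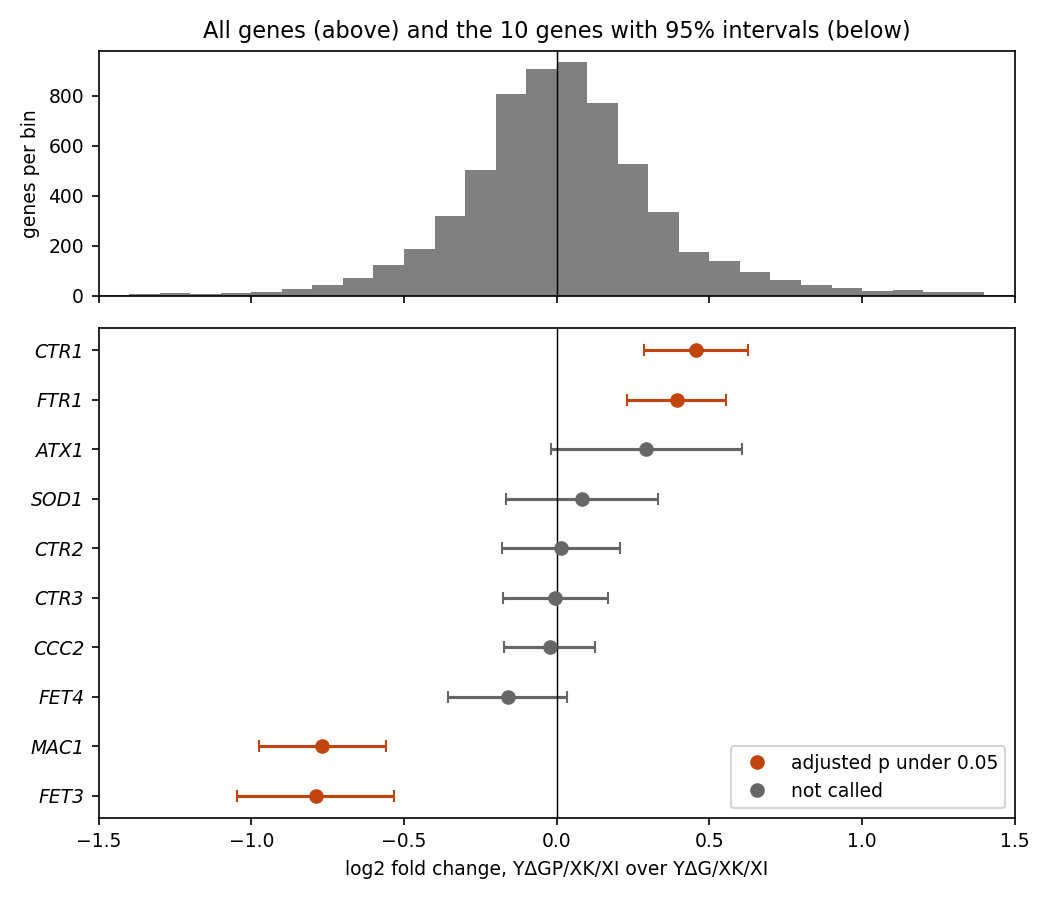
Log2 fold change of YΔGP/XK/XI over YΔG/XK/XI for the 10 genes with 95% intervals from limma (below), coloured where the adjusted p was under 0.05, and the histogram of all genes in bins of 0.1 on the same axis, cut at 1.5 on either side (above). *CTR1* and *FTR1* lie at 0.46 and 0.39, *MAC1* and *FET3* at -0.77 and -0.79, and the intervals of the other 6 genes include 0.

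The 4 calls held under each of the 16 alternatives run, which included the removal of each array in turn. Over these the log2 fold change of *FET3* ranged from -0.88 to -0.68, that of *FTR1* from 0.29 to 0.43, that of *CTR1* from 0.40 to 0.49 and that of *MAC1* from -0.85 to -0.69. None of the other 6 genes was called under any of them (smallest adjusted p = 0.0553, for *FET4*, limma). Within slide 2, with 1 array per strain and no test, the log2 difference of *FET3* was -0.97, against -0.70 within slide 1, and that of *CTR1* was 0.59, against 0.39. For *FTR1* the difference was smaller within slide 2, at 0.32 against 0.43, and for *MAC1* it was similar, at -0.76 against -0.77.

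Genes near the copper uptake system were examined next. Mac1p is known to activate *CTR1*, *CTR3* and the reductase genes *FRE1* and *FRE7*. *FRE7* (YOL152W) had normalized log2 signals of -1.70, -1.56 and -1.77 in YΔGP/XK/XI, against -3.01, -3.13 and -3.48 in YΔG/XK/XI. This was a rise of 2.88-fold, or 1.53 ± 0.12 on the log2 scale (adjusted p = 9.34e-05, limma), larger than that of any of the 10 genes. *FRE1* (YLR214W), the main surface reductase for both metals, was at -0.54, -0.70 and -0.57 in YΔGP/XK/XI, against -1.08, -1.10 and -1.38 in YΔG/XK/XI. It was 1.49-fold higher (log2 fold change 0.58 ± 0.10, adjusted p = 0.00364, limma). Of the 6 genes measured here that are known as Mac1p targets, *CTR1*, *FRE1* and *FRE7* were called higher and the other 3 were not called. These were *CTR3*, *IRC7* and *REE1*, of which *IRC7* and *REE1* had log2 fold changes of 0.13 and 0.10 (adjusted p = 0.385 and 0.332, limma).

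A list of 9 copper-responsive genes, which holds *FRE1* and *FRE7* but not the 10 genes, had 2 called higher and 2 called lower, or 44.4% called against 29.6% of all genes, with a median log2 fold change of 0.10 against 0.01 over all genes. The list mixes targets of Mac1p, which acts when copper is scarce, with metallothionein genes and their activator gene, which serve under copper excess. Its share and median thus do not describe a single copper response. The 2 called lower were *CUP2* and *PCA1*. *CUP2* (YGL166W), which encodes the activator of the metallothionein genes under copper excess, had a log2 fold change of -0.36 ± 0.08 (adjusted p = 0.0107, limma). *PCA1*, which encodes a metal-exporting ATPase, was at -0.31 (adjusted p = 0.0351, limma) and was not called when replicate 1 or 3 of YΔGP/XK/XI, or any array of YΔG/XK/XI, was removed. The metallothionein genes *CUP1-1* and *CUP1-2*, looked up after the values of *CUP2* were seen, had log2 fold changes of -0.24 each (adjusted p = 0.254 and 0.240, limma) and overlapped between the strains. With quantile normalization *CUP1-2* was called, at -0.30 (adjusted p = 0.0176, limma). The third metallothionein gene, *CRS5*, had a log2 fold change of 0.12 (adjusted p = 0.335, limma). *CUP1-1* and *CUP1-2* are near-identical copies whose probes cannot be told apart. A list of 10 genes for copper chaperones and the delivery of copper to mitochondria had 2 called higher, *COX17* and *CMC1* (log2 fold changes 0.37 and 0.36), and 0 called lower (limma, also 0 at an unadjusted p under 0.05), which is 20% called against the same 29.6%. The 10 genes of this list include *SOD2*, the gene of the manganese superoxide dismutase, which does not belong to copper delivery. *SOD2* was not called (log2 fold change -0.14, adjusted p = 0.383, limma). *COX17* was not called without replicate 1 of YΔGP/XK/XI or replicate 1 or 3 of YΔG/XK/XI, nor *CMC1* without replicate 1 of YΔGP/XK/XI or replicate 1 or 2 of YΔG/XK/XI. *PCA1*, *COX17*, *CMC1*, *SOD2*, *CRS5*, *IRC7* and *REE1* were named after their values were seen.

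The iron regulon gives the setting for *FET3* and *FTR1*. Of 21 other genes listed here for the regulon, 12 were called lower and 0 were called higher (limma, also 0 higher at an unadjusted p under 0.05). This is 57.1% called, against 29.6% of all genes, of which 13.1% were called lower and 16.5% higher. The list had a median log2 fold change of -0.34 against 0.01 over all genes. Some genes that also serve iron uptake were counted in other lists. These include *CCC2* and *ATX1*, which were not called, and *FRE1*, which was called higher (log2 fold change 0.58, adjusted p = 0.00364, limma). The absence of genes called higher thus holds for the list as drawn up. The probe of *FRE5* was near background, and of the other 20 genes 19 had a log2 fold change below 0. Over the whole array 3043 of the 6256 genes were below 0. *FET3* was called in the same direction as the 12 genes, and *FTR1*, whose promoter Aft1p is known to bind as it does that of *FET3*, was called in the opposite one. The count of called genes depended on the arrays. It was 5 to 10 when an array was left out, with 6 without replicate 1 or 2 of YΔGP/XK/XI or replicate 1 of YΔG/XK/XI and 5 without replicate 3 of YΔGP/XK/XI. With the normexp background correction it was 7.

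The called genes of the regulon with log2 fold changes of at least 0.5 in size were the cell wall mannoprotein genes *FIT2* (-1.01) and *FIT3* (-0.73), the siderophore transporter gene *ARN2* (-0.55), the heme oxygenase gene *HMX1* (-0.52) and *TIS11* (-0.59), which encodes a protein that degrades mRNAs of iron-using proteins in iron scarcity. In *FIT2*, *FIT3* and *TIS11* replicate 3 of YΔG/XK/XI, the same array that was highest for *FET3*, stood far above the other two. Without it their log2 fold changes were -0.60, -0.42 and -0.39, and they were still called. Each of these 3 genes lost its call when any 1 array of YΔGP/XK/XI was removed, and *FIT2* also without replicate 2 and *FIT3* without replicate 1 of YΔG/XK/XI, and *TIS11* with normexp. *ARN2* and *HMX1* were called under all 16 alternatives.

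The vacuole has a paralogous pair, *FET5* (YFL041W) for the oxidase and *FTH1* (YBR207W) for the permease, which moves stored iron back to the cytosol. *FET5* had normalized log2 signals of -0.18, -0.27 and -0.18 in YΔGP/XK/XI, against 0.19, 0.11 and 0.08 in YΔG/XK/XI. *FTH1* was at -3.63, -3.16 and -3.33 in YΔGP/XK/XI, against -2.99, -3.07 and -2.94 in YΔG/XK/XI. Here the oxidase and the permease genes changed in the same direction, at -0.34 for *FET5* (adjusted p = 0.00921, limma) and -0.37 for *FTH1* (adjusted p = 0.0439, limma) on the log2 scale. *FET5* kept its call under all 16 alternatives. *FTH1* lost it under 7, namely normexp, the median over spots, and the removal of any array but replicate 2 of YΔGP/XK/XI, with a log2 fold change of -0.24 without replicate 1 of YΔGP/XK/XI. *AFT1* and *AFT2*, the genes of the activators of the regulon, had log2 fold changes of -0.23 and -0.27, which did not pass the test (adjusted p = 0.0629 and 0.0507, limma), although the arrays did not overlap. *AFT1* passed it under 4 and *AFT2* under 8 of the alternatives.

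**Figure D5:**
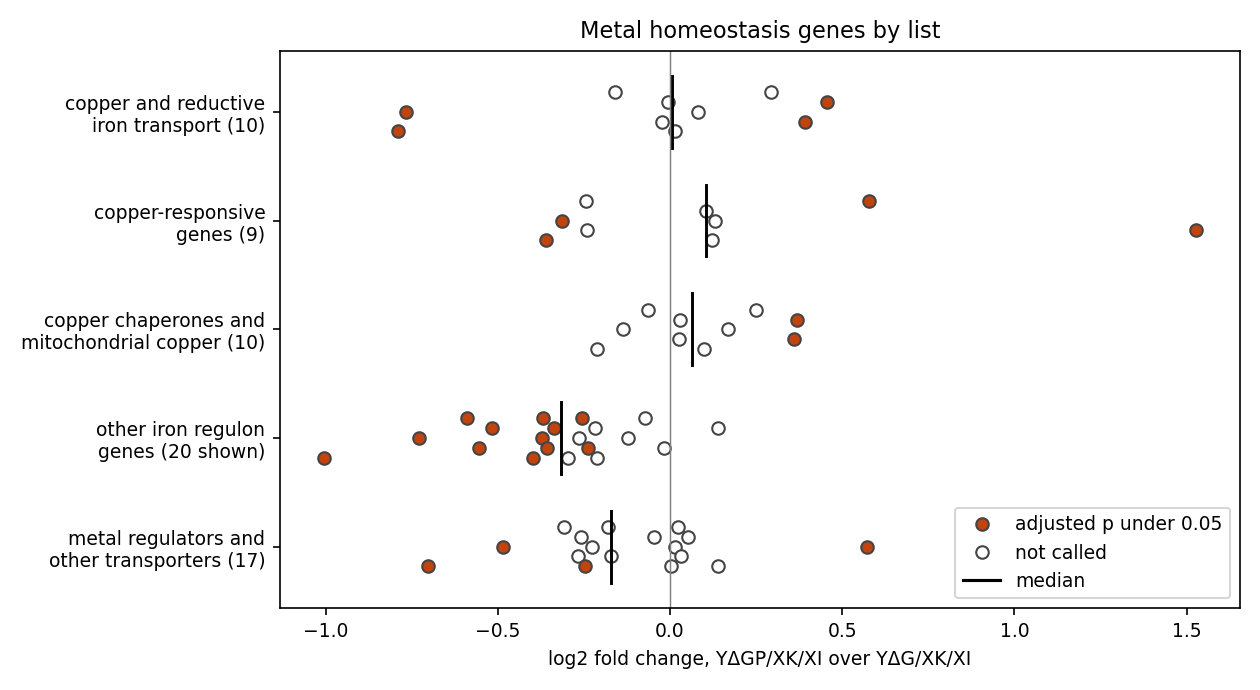
Log2 fold change of YΔGP/XK/XI over YΔG/XK/XI (horizontal axis) for the 10 genes and the 4 lists of metal genes around them, with 1 point per gene, filled where the adjusted p was under 0.05, and the median of the points shown as a line. The points of the iron regulon lie below 0 except for 1 gene, those of the 10 transport genes fall on both sides, and *FRE7* at 1.53 is the highest point. *FRE5*, near background, is left out.

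The genes whose profiles over the 6 arrays were most like those of *FET3* and *FTR1* were looked for among 5878 other genes well above background on all arrays. Likeness was the root mean square difference of the log2 signals after each gene was centred on its mean. The 5 nearest to *FET3* were *YOR338W*, *PUT1*, *YEL008W*, *TDA6* and *RRN10*, at differences of 0.0459 to 0.0790. *PUT1* encodes proline oxidase and *RRN10* a factor for transcription by RNA polymerase I. The 5 nearest to *FTR1* were *YOR072W*, *SER3*, *DPC29*, *NHP6A* and *PPT2*, at 0.0254 to 0.0329, of which *SER3* encodes an enzyme of serine synthesis and *NHP6A* a chromatin protein. No gene of the metal lists was among these 10 nearest genes. The lists hold only a small part of the 5878 genes searched, so little can be read from this.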

How the data were processed

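The authors hybridized Cy3-labelled cRNA to *S. cerevisiae* 4 × 44 k arrays in triplicate and deposited the Feature Extraction 10.1.1.1 output of each, with spot intensities after background subtraction and no scaling between arrays. A deposited log2 table served as an alternative. Its columns, with medians of -0.0107 to 0.0143, matched the 75th percentile shift centred per probe (r of 0.9999, slope 0.999 to 1.001), so scale, centring and direction were settled.

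Control and outlier spots were left out, the spots of a probe were averaged as log2, and each array was shifted by its 75th percentile. A probe counted as well above background with at least 4 of its 7 spots so marked. The test was limma 3.58.1 under R 4.3.3 (prior degrees of freedom 4.29), adjusted over all 6256 genes by Benjamini-Hochberg. The comparison was run on simulated data with independent errors and few changed genes. That simulation does not cover spread shared between arrays or a share of called genes as large as here. Intervals are 95%, and 3 arrays per strain limit the precision. The p-values measure the spread between these arrays, whose cultures the labels do not describe further. For *PHO13* the bound sets the mean of YΔG/XK/XI against the higher of the probe's own signal and the lowest signal well above background on each array of YΔGP/XK/XI.

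Names were checked against the R64 assembly, where 5756 of 6256 were found. Coordinates of that assembly were used only to find the genes that flank the 10 members. Cross-hybridization between paralogs was not tested, and sequences were not used here. The members and lists were chosen, from general knowledge of yeast genes, with earlier results of these data known. Named were the 10 members, the strain genes, list genes called with a log2 change of at least 0.5 in size, *AFT1*, *AFT2*, *CUP2*, *FRE1*, *CCS1*, *FET5*, *FTH1* and the 5 genes nearest in profile to *FET3* and *FTR1*. Outside this rule, *PCA1*, *CUP1-1*, *CUP1-2*, *CRS5*, *IRC7*, *REE1*, *COX17*, *CMC1*, *SOD2* and the near-background *FRE5* were named after their values were seen. The same holds for the flanking genes *AAC1*, *FMS1*, *URA8*, *YLH47* and *AXL1*.

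The alternatives were normexp (offset 50) on median raw and background intensities, as no mean raw intensity was used here, quantile normalization, median scaling, a filter on dim probes, the median in place of the mean of spots, no removal of outlier spots, a variance trend with intensity, the replicate number and the slide as blocks, the deposited table, and each array left out.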

Additional observations from a re-analysis of the deposited data

How the results depend on the processing

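The 10 transport genes kept their side of the threshold in all 160 values, 10 genes under 16 alternatives. Of the called genes over the whole array there were 1178 without replicate 1 of YΔG/XK/XI, and 1178 to 1661 when each array was left out, against 1852. The replicate numbers were not taken as pairs, because the paper states triplicates and describes no pairing. Deviations from the strain means correlated at 0.0656 to 0.415 between arrays of the same number, and 2 of the 3 pairs exceeded 0.1. Of the 6 arrays, 5 correlated best with their own number. Replicate 1 of YΔGP/XK/XI correlated better with replicate 2 of YΔG/XK/XI (0.13) than with replicate 1 (0.0656). Deviations from a strain mean sum to 0, so these best matches are not independent of each other. Arrays of the same number thus shared some spread in 2 of the 3 pairs, which the main test did not take into account. Replicate 3 was also the only number on slide 2, so for it the number and the slide cannot be told apart. With the replicate number as a block 2362 genes were called, the 4 transport genes among them. The *FET3* change minus the *FTR1* change was -1.07 with normexp, against -1.18, and -1.23 to -1.11 with an array left out. The bound for *PHO13* was 24.6-fold with normexp. Among the iron regulon genes 7 were called with normexp and 5 to 10 with an array left out, against 12. Among the copper chaperone genes 0 to 3 were called with an array left out, against 2. Among the metal regulators and other transporters 7 were called with quantile normalization, with the intensity trend, with the replicate block and with the slide as a block, and 8 with median scaling, against 4. The causes of these differences were not tested. Of the other 58 listed genes, 12 lost and 11 gained a call under at least 1 alternative, with 0 reversals of a called gene (limma). Signal limited *FRE5* and *GRE3*, which were near background.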

Other observations

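Among 17 genes for metal regulators and other metal transporters, 1 was called higher and 3 were called lower in YΔGP/XK/XI (limma), which is 23.5% called against 29.6% of all genes, with a median log2 fold change of -0.17. *SMF1* (YOL122C), which encodes a manganese and divalent metal transporter, had normalized log2 signals of -1.12, -1.04 and -1.24 in YΔGP/XK/XI, against -1.60, -1.68 and -1.82 in YΔG/XK/XI, and was 1.49-fold higher (log2 fold change 0.57, adjusted p = 0.00218, limma). *YAP5* (YIR018W), the gene of the activator that responds to high iron, was at -1.71, -1.86 and -1.69 in YΔGP/XK/XI, against -1.03, -1.03 and -1.10 in YΔG/XK/XI, a log2 fold change of -0.70 (adjusted p = 3.71e-04, limma). Both were called under all 16 alternatives.

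The 20 genes that flank the 10 transport genes in the R64 assembly, counting only protein-coding genes with a probe, had 2 called higher and 7 called lower (limma), 9 of 20, where 16.5% of all genes were called higher and 13.1% lower. Next to *FET3*, *AAC1* had a log2 fold change of -0.40 (adjusted p = 0.0114, limma), and next to *MAC1*, *FMS1* had one of -0.40 (adjusted p = 0.0103, limma). The largest change was that of *URA8* (-0.50, adjusted p = 0.0011, limma), next to *SOD1*, which was not called. Beside *CTR1*, which rose, *YLH47* was called lower (-0.27) and *AXL1* higher (0.32). Genes were also called beside *FET4*, *CTR2*, *CCC2* and *ATX1*, which were not called themselves. Neither neighbour of *FTR1* was called (log2 fold changes 0.01 and 0.11). These flanking genes were named after their values were seen.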
